A study of Mus musculus with 6 samples.

Results

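The genes described are App, its paralogues Aplp1 and Aplp2, the secretase genes Adam10, Bace1, Psen2 and Ncstn, and Thy1, the source of the promoter that drives the transgenes of the mouse line. They were chosen by symbol and make up 8 of the 32285 genes in the matrices. The series measured RNA in single nuclei, in 6 libraries from frozen cortex of mice aged 7.5 months, after nuclei carrying the neuronal protein NeuN had been sorted away. The groups hold 2 libraries each and are 5xFAD mice with the P522R variant of Plcg2 (5xFAD-P522R), 5xFAD mice with its M28L variant (5xFAD-M28L), and 5xFAD mice with neither (5xFAD). All groups thus carry the 5xFAD transgenes, and no library without them was analysed here. 5xFAD mice express human transgenes with familial Alzheimer mutations, APP among them, from mouse Thy1 promoter constructs and form amyloid plaques. The matrices hold no separate row for the transgenes, and whether transgene reads were counted under the mouse genes was not tested. Equal numbers of nuclei from males and females were loaded together for each library. The labels do not say whether replicates 2 and 3 come from separate sets of animals, so the p-values cover spread from library to library only, which may be technical.

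APP is a membrane protein that can be cut along alternative routes. Cleavage by α-secretase, chiefly ADAM10, falls inside the amyloid-β stretch, whereas cleavage by the β-secretase BACE1 and then by γ-secretase releases amyloid-β. γ-Secretase is a complex of a catalytic presenilin with nicastrin and further subunits, and APLP1 and APLP2 are cut by the same enzymes but hold no amyloid-β stretch.

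The start regions of the 3 genes of the precursor family are shown because Aplp2 was highest in another cell type than App and Aplp1. Each window holds 300 bases around a RefSeq transcription start on GRCm38.p6, read along the gene's strand, and capitals mark GC boxes (GGGCGG, or CCGCCC on the other strand). The windows lie at chr16:85173658-85173957, minus strand for App, chr7:30445533-30445832, minus strand for Aplp1 and chr9:31211799-31212098, minus strand for Aplp2.
App: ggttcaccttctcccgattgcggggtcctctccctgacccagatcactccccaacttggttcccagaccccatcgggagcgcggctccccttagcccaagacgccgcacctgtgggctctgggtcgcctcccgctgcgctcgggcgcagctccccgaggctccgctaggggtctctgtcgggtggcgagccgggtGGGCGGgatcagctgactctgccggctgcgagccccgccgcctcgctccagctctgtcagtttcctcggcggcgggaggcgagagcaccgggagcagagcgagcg
Aplp1: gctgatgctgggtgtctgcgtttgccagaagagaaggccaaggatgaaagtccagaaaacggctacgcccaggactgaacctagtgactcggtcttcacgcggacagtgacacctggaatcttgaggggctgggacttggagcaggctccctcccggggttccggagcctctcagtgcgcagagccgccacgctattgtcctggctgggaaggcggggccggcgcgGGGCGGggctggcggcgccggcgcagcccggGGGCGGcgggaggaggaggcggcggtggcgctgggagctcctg
Aplp2: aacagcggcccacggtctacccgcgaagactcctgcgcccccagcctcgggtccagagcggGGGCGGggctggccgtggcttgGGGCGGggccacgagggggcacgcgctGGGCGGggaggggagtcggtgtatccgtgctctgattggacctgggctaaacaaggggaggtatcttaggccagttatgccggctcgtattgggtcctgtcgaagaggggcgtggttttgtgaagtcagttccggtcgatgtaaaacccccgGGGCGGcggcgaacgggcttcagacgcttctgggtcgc
The App window held 1 GC box, the Aplp1 window 2 and the Aplp2 window 4, none overlapping another. At least 1 was present in 35.7% of all 32851 RefSeq windows of this length. Their GC content was 71.0%, 68.7% and 67.0% in the same order, and the median over all windows was 52.7%. None of the 3 held a TATA box (TATAAA, or TTTATA on the other strand), which 13.6% of all windows held. The Adam10 window had 3 GC boxes, the Ncstn window none, and of the Psen2 windows 1 had 4 and the other none. A window was found for 6 of the 8 genes, not for Bace1 or Thy1.

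The libraries held 9269 to 13783 barcodes and 53326947 to 72288942 UMIs (unique transcript molecules), with medians of 3842 to 4972 UMIs per barcode. Pairs of libraries shared 20 to 71 barcode sequences, at most 0.751% of the smaller library. After filters and the removal of 3464 called doublets 59187 nuclei remained, and 53200 lay in clusters that could be named from markers. The 10 cell types with at least 20 nuclei in every library ranged from 27968 oligodendrocyte-like to 244 border macrophage-like nuclei, and in each of them every marker was more than 2-fold above the rest. The 4647 neuron-like nuclei are those left after the sort. One library stood apart: 5xFAD-P522R replicate 3 was processed with Cell Ranger 5.0.1 and the others with 6.1.2, per the file headers, and it supplied 125 of the 174 nuclei of a microglia sub-cluster with 15186 CPM of 10 abundant oligodendrocyte transcripts (1650 to 2227 CPM in the other sub-clusters).

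App (ENSMUSG00000022892, chromosome 16, 84949685 to 85173766 of GRCm38, minus strand), the amyloid precursor, was highest in oligodendrocyte-like and endothelial-like nuclei and lowest in astrocyte-like nuclei. Levels are given as CPM, the gene's UMIs scaled to a common total of UMIs in each cell type and library, as mean ± SD over the 6 libraries unless stated. They are not corrected for length and are compared between cell types only. Oligodendrocyte-like nuclei had 1536 and 1449 CPM in 5xFAD-P522R, 1572 and 1343 CPM in 5xFAD-M28L, and 1416 and 1362 CPM in 5xFAD. Endothelial-like nuclei had 1339.6 and 1341 CPM in 5xFAD-P522R, 1554 and 1476 CPM in 5xFAD-M28L, and 1332 and 1217 CPM in 5xFAD. The ranges of these cell types overlapped across libraries, and oligodendrocyte-like nuclei were higher in 5 of 6. Border macrophages, the phagocytes of the meninges and vessels, followed at 1057 ± 115 CPM, below both in all 6 libraries. Committed oligodendrocyte precursors (621 CPM), pericytes or smooth muscle (595), neurons (576) and fibroblasts (562) formed a middle group whose neighbours overlapped. Oligodendrocyte precursors (311 ± 12.01 CPM) and microglia (289.9 ± 62.2 CPM) were lower, and astrocytes had 128 ± 16.1 CPM. The astrocyte-like clusters differed, with 102, 301 and 452 CPM in clusters of 3319, 285 and 90 nuclei (libraries pooled). The mean in oligodendrocytes was 11.3 times that in astrocytes. Oligodendrocyte-like nuclei held 59.1% of all App UMIs and neuron-like nuclei 15.3%, shares that also depend on how many nuclei of each type passed the sort.

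The 2 paralogues had other patterns. Aplp1 (ENSMUSG00000006651, chromosome 7, 30434982 to 30445535 of GRCm38, minus strand), whose protein is mainly known from neurons, was highest in oligodendrocyte-like nuclei. They had 241 and 289 CPM in 5xFAD-P522R, 177 and 221 CPM in 5xFAD-M28L, and 198 and 215 CPM in 5xFAD, above every other type in all 6 libraries. Its next highest type was astrocytes at 71.8 ± 8.11 CPM, and the lowest was endothelial at 28.2 ± 9.35 CPM. From astrocytes down, all neighbours in the order overlapped. Aplp2 (ENSMUSG00000031996, chromosome 9, 31149557 to 31211815 of GRCm38, minus strand), the more widely expressed paralogue, was highest in endothelial-like nuclei at 365 ± 41.2 CPM, with 354 and 355 CPM in 5xFAD-P522R, 293 and 408 CPM in 5xFAD-M28L, and 386 and 392 CPM in 5xFAD. The endothelial range did not overlap that of fibroblasts, the next type, at 259 ± 31.2 CPM. Oligodendrocytes had 201 ± 14.4 CPM and committed precursors, the lowest type, 97.9 ± 17.5 CPM. Microglia averaged 133 ± 40.3 CPM with a range of 88.0 to 176, a spread that is described by state and by genotype further on.

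**Figure D1:**
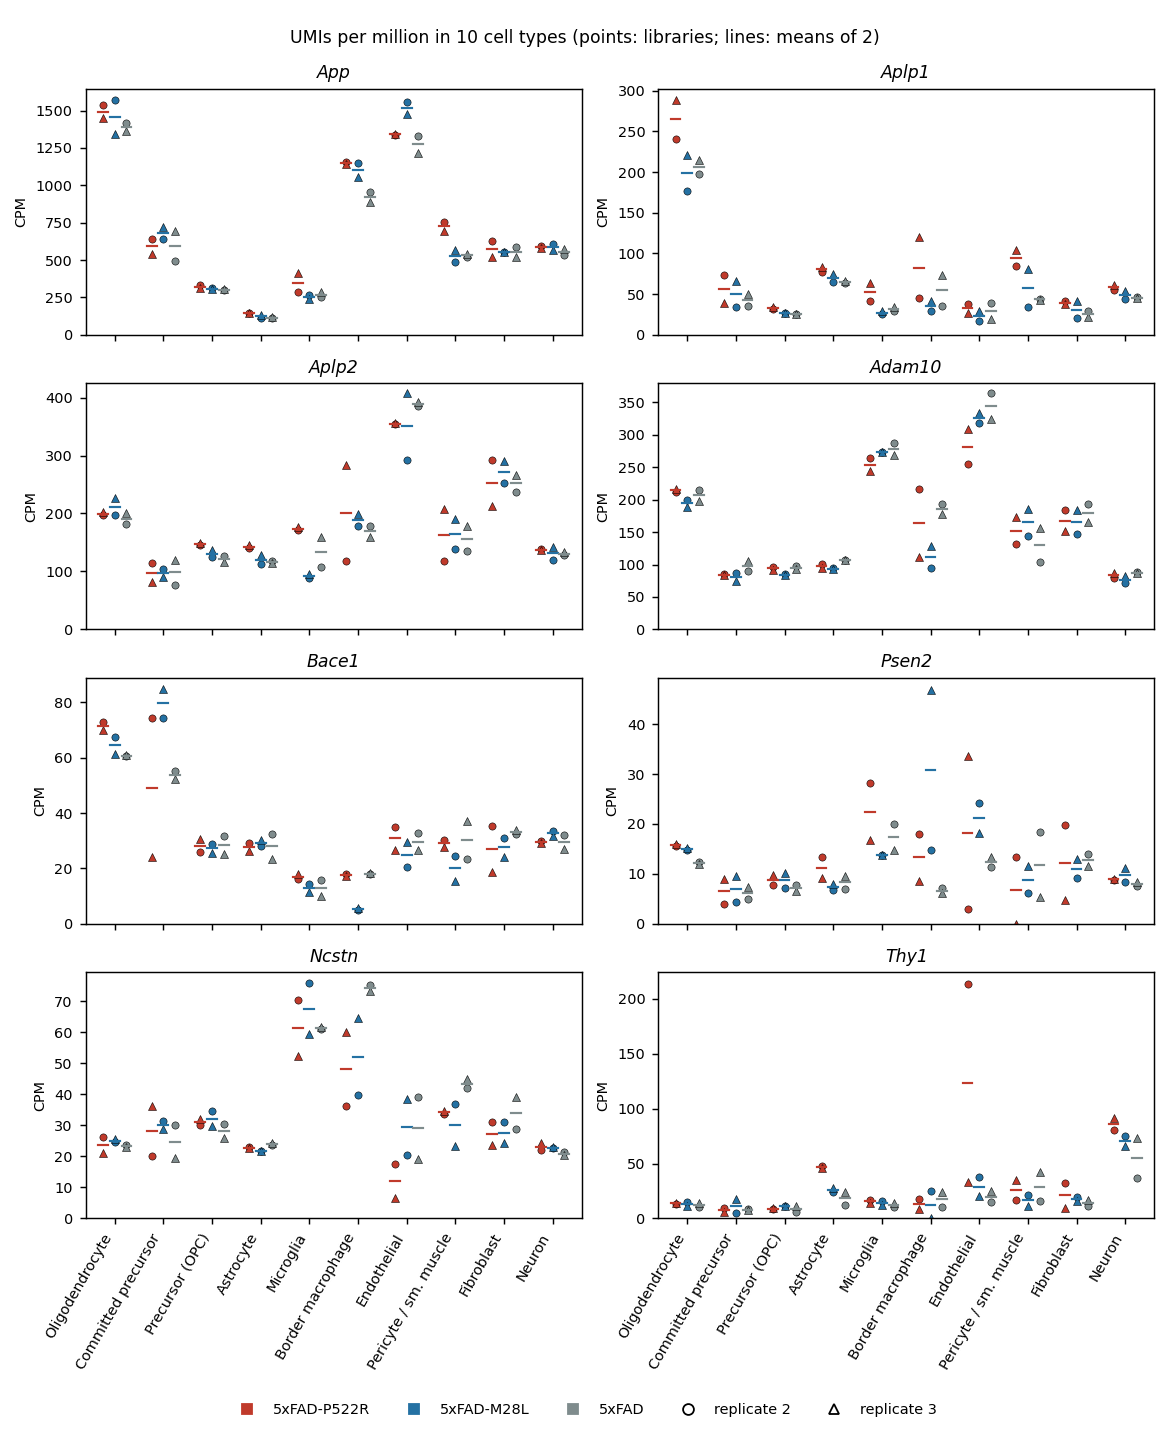
Level of each gene (CPM, linear axis from 0, scale differs by panel) in 10 cell types; points are libraries, circles for replicate 2 and triangles for replicate 3, and lines are means of the 2 libraries of a group. App and Aplp1 peak in oligodendrocytes, Aplp2 and Adam10 in endothelial cells, Ncstn in microglia and border macrophages, and Thy1 in neurons apart from 1 endothelial value of 214 CPM.

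Of the initiating secretases, Adam10 (ENSMUSG00000054693, chromosome 9, 70678997 to 70780229 of GRCm38, plus strand), the main α-secretase, was highest in endothelial-like nuclei and microglia. Endothelial-like nuclei had 317 ± 36.3 CPM. Microglia had 264 and 245 CPM in 5xFAD-P522R, 273 and 273 CPM in 5xFAD-M28L, and 288 and 269 CPM in 5xFAD, and these ranges overlapped. The range of microglia did not overlap that of oligodendrocytes, the third type, at 205 ± 11.1 CPM. Neurons were lowest at 82.5 ± 6.14 CPM and overlapped committed precursors at 87.8 CPM. Bace1 (ENSMUSG00000032086, chromosome 9, 45838580 to 45864399 of GRCm38, plus strand), the β-secretase, was highest in oligodendrocytes and committed precursors, with 60.8 ± 21.9 CPM in committed precursors. Oligodendrocytes had 72.7 and 69.8 CPM in 5xFAD-P522R, 67.6 and 61.3 CPM in 5xFAD-M28L, and 60.4 and 60.8 CPM in 5xFAD. Each of these 2 types was above the other in 3 of 6 libraries. In the other cell types, oligodendrocyte precursors (27.97 CPM) among them, it ranged from 13.7 CPM in border macrophages and 14.3 CPM in microglia to 30.6 CPM in neurons. Microglia were thus low in Bace1 and high in Adam10 relative to the other cell types. An unnamed cluster of 3283 nuclei, which matched oligodendrocyte markers best, had Bace1 at 81.5 CPM (1501 UMIs, libraries pooled).

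Of the γ-secretase subunits, Ncstn (ENSMUSG00000003458, chromosome 1, 172066013 to 172082795 of GRCm38, minus strand), which encodes nicastrin, the subunit that receives substrates, was highest in the phagocytes. Microglia had 70.2 and 52.5 CPM in 5xFAD-P522R, 75.8 and 59.4 CPM in 5xFAD-M28L, and 61.0 and 61.5 CPM in 5xFAD, and border macrophages averaged 58.2 ± 16.7 CPM. Every other type had means between 22.3 and 35.9 CPM, and border macrophages exceeded the next type, pericytes, in all 6 libraries although the ranges overlapped. Psen2 (ENSMUSG00000010609, chromosome 1, 180227004 to 180263438 of GRCm38, minus strand), a catalytic presenilin, was also highest in microglia among the 10 cell types. It had 17.9 ± 5.55 CPM in microglia, 17.3 ± 10.7 CPM in endothelial-like nuclei, 16.95 ± 15.4 CPM in border macrophages and 14.3 ± 1.72 CPM in oligodendrocytes. Its means ran down to 6.60 CPM in committed precursors, and all neighbours in its order overlapped. Its ranges in microglia (13.7 to 28.1 CPM) and oligodendrocytes (12.1 to 16.03) lay above those in neurons (7.54 to 11.2), oligodendrocyte precursors (6.56 to 10.2) and committed precursors (4.04 to 9.60). The endothelial value rested on 41 UMIs over the 6 libraries and that of border macrophages on 17, against 543 in microglia. The unnamed cluster of 3283 nuclei described above had Psen2 at 21.8 CPM (402 UMIs, libraries pooled).

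Thy1 (ENSMUSG00000032011, chromosome 9, 44043384 to 44048579 of GRCm38, plus strand) encodes a surface glycoprotein of neurons and T cells. Neuron-like nuclei had 80.4 and 91.1 CPM in 5xFAD-P522R, 75.3 and 65.6 CPM in 5xFAD-M28L, and 37.0 and 73.1 CPM in 5xFAD, and 5xFAD replicate 2 was the lowest of the 6. They held 57.0% of all Thy1 UMIs although NeuN-positive nuclei had been removed. Within them, excitatory-like neurons had 103 ± 27.6 CPM, inhibitory-like neurons 41.2 ± 8.85 CPM and other neurons 24.2 ± 4.08 CPM. The excitatory value was above the inhibitory value in all 6 libraries without overlap. Adam10 and Aplp2 went the other way, with 77.3 ± 8.65 and 119.8 ± 8.16 CPM in excitatory against 104 ± 12.1 and 156 ± 10.4 CPM in inhibitory neurons, lower in all 6 libraries. Outside neurons, most cell types had 8.89 to 23.8 CPM of Thy1, and astrocytes had 30.4 ± 13.7. An unnamed cluster of 360 nuclei had Thy1 at 273 CPM (187 UMIs, libraries pooled). Endothelial-like nuclei ranged from 14.7 to 214 CPM. The top of that range, 5xFAD-P522R replicate 2, came from 1 nucleus with 57 of the 73 Thy1 UMIs, and its value was 49.2 CPM without that nucleus. In the same library endothelial-like nuclei had 4700.2 CPM of 10 abundant neuron transcripts, against 1189.9 to 2026 CPM in the other libraries.

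**Figure D2:**
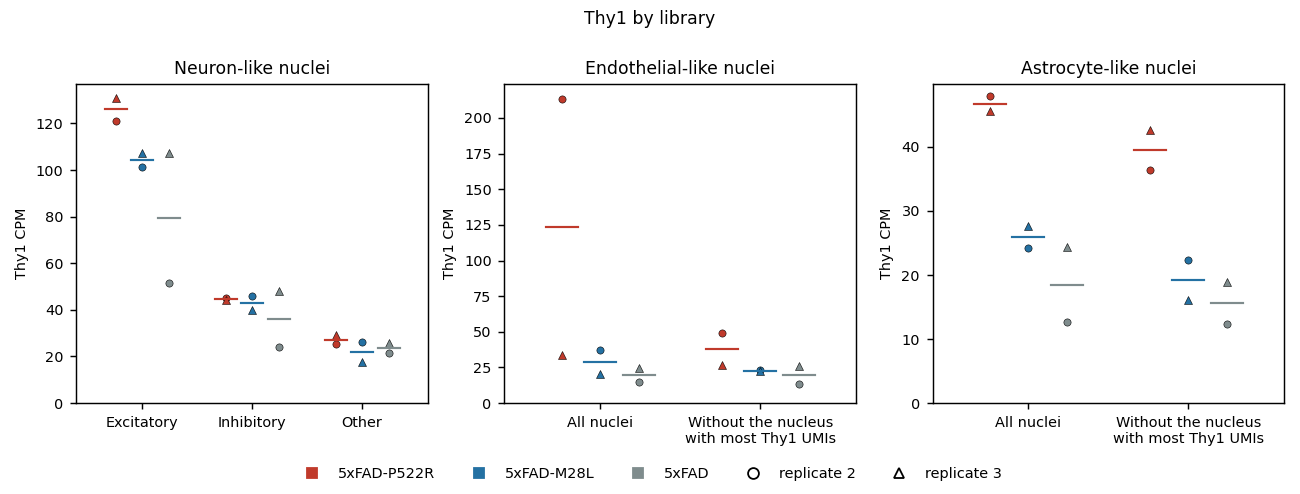
Thy1 (CPM, linear axis from 0) in subtypes of neuron-like nuclei, and in endothelial-like and astrocyte-like nuclei with all nuclei and without the nucleus with the most Thy1 UMIs in each library. Points are libraries and lines are means of 2; the endothelial value of 5xFAD-P522R replicate 2 is 214 CPM with that nucleus and 49.2 CPM without it.

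Microglia differed by state in which family member and secretase they carried. Disease-associated microglia, the plaque-responding state, were set beside homeostatic and interferon-responsive microglia. Each state was named from its markers after clustering on variable genes of the microglia, so these values are descriptions with no test. Aplp2 was at 239 ± 47.1 CPM in disease-associated and 57.5 ± 13.3 CPM in homeostatic microglia, 4.16 times as high, without overlap between libraries. Adam10 was lower, at 225 ± 13.9 CPM against 320.4 ± 12.9 CPM, again without overlap, and interferon-responsive microglia lay between at 256 ± 22.6 CPM. Psen2 was higher in disease-associated microglia in all 6 libraries (23.1 ± 9.55 against 12.8 ± 4.89 CPM), with overlapping ranges. App was at 302 ± 42.7 against 249 ± 32.4 CPM and higher in 5 of 6 libraries. Bace1, Ncstn, Aplp1 and Thy1 had ratios of 0.886 to 1.09 between these states, with overlapping ranges. Microglia in sub-clusters left unnamed by state (1825 and 174 nuclei) are outside these comparisons. They had App at 328 ± 119 CPM, with a range of 250 to 566 CPM.

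**Figure D3:**
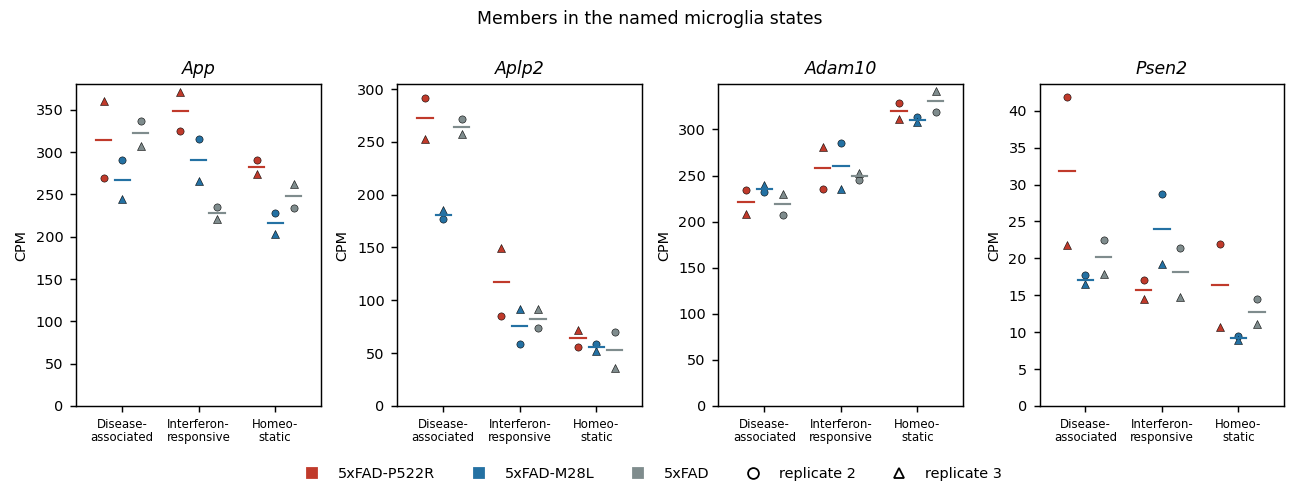
App, Aplp2, Adam10 and Psen2 (CPM, linear axis from 0) in 3 named microglia states; points are libraries and lines are means of the 2 libraries of a group. Aplp2 is higher and Adam10 lower in disease-associated than in homeostatic microglia in every library.

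Shares of nuclei with a UMI were compared at equal depth. Median depth ran from 3190 UMIs in pericyte-like to 12499 in neuron-like nuclei, so each nucleus was thinned to 1500 UMIs, and 458 nuclei of the 10 types that had fewer were left out. After thinning, App was seen in 86.9% of endothelial-like, 86.3% of oligodendrocyte-like, 30.4% of microglia-like and 15.7% of astrocyte-like nuclei (means of 6 libraries). Unthinned, the same shares were 96.2%, 97.7%, 52.8% and 46.5%. Aplp1 was seen in 27.99% of thinned oligodendrocyte-like nuclei and at most 10.2% elsewhere. Bace1 was seen in 9.06% of oligodendrocytes and 2.09% of microglia, while Adam10 was seen in 25.4% and 31.7% and Ncstn in 3.43% and 8.85%. Bace1 and Ncstn were seen most often in a smaller type, Bace1 in 9.52% of committed precursors and Ncstn in 10.7% of border macrophages. Psen2 was seen in 3.88% of border macrophages and 2.69% of microglia. For App, Bace1, Ncstn and Psen2 the type with the highest share was thus not the type with the highest level. For App (86.9% against 86.3%) and Bace1 (9.52% against 9.06%) these shares were close. Border macrophages held 17 Psen2 UMIs in 244 nuclei before thinning. Thy1 was seen in 7.73% of thinned neuron-like nuclei, and in 2.01% of oligodendrocytes, a type known to lack it, with median depths of 12499 and 3845 UMIs. The unthinned Thy1 shares were 41.3% and 5.25%.

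The genes whose pattern over cell types was most like each member were found by Pearson's r of mean log2(CPM + 1) over the 10 types, among 13745 genes. The points share libraries, and r is a description. For Thy1 these were Nrgn (r = 0.977), Egr3 (0.947) and Camk2a (0.931), of which Nrgn and Camk2a are on the marker list for excitatory neurons. For App they were Dixdc1, St6galnac3 and Myo1d (0.848 to 0.854), and for Aplp1 Myo18a, Abca2 and Chdh (0.923 to 0.937). Aplp2 was nearest to Ndrg1, Ndufaf3 and Egln2 (0.923 to 0.937), and Adam10 to Mrpl43, Zfp212 and Mrpl24 (0.943 to 0.947). Bace1 was nearest to Pcbp4 (0.974), then Acyp2 and Aktip (0.903 and 0.899). Psen2 was nearest to Ccdc84, Zfp84 and Rps6ka1 (0.937 to 0.961), and Ncstn to Top3a, Sfmbt1 and Prpsap2 (0.951 to 0.967). Among the members themselves, Adam10 and Psen2 were most alike (r = 0.88) and Bace1 and Ncstn least (r = −0.75).

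The genotypes were then compared within each cell type, as 5xFAD-P522R against 5xFAD, 5xFAD-M28L against 5xFAD and 5xFAD-P522R against 5xFAD-M28L, from UMIs summed per library, with edgeR's quasi-likelihood test and Benjamini-Hochberg adjustment over all genes of that type and contrast (threshold 0.05). After the filter on low counts, all 8 genes were tested in 7 cell types, 6 in committed precursors and in pericytes, and 5 in border macrophages, which gives 73 pairs of gene and cell type per contrast. Each group enters 2 contrasts, which are therefore not independent of each other. None of the 73 pairs passed in P522R against 5xFAD, where 0.0272% of all 110226 gene and type pairs did. None passed in M28L against 5xFAD or in P522R against M28L, where 0.00272% of all pairs did in each. At an unadjusted p under 0.05 by edgeR, 11 of the 73 pairs (15.1%) differed in P522R against 5xFAD, all of them higher in P522R, beside 9.08% of all pairs (4.38% higher). Of these 11, 5 were of Aplp1 and 2 of Thy1. The same count was 3 (4.11%, beside 7.37%) in M28L against 5xFAD, with 1 higher and 2 lower in M28L (3.72% and 3.65% of all pairs). In P522R against M28L it was 9 (12.3%, beside 6.46%), all higher in P522R (3.25% of all pairs). DESeq2 called 1 pair (Thy1 in astrocytes), 0 and 1 (Aplp2 in microglia) in the 3 contrasts in this order, beside 0.377%, 0.364% and 0.249% of the pairs it tested. Fold changes were above 0 in 51 of 73 pairs (69.9%, beside 50.1% of all pairs) in P522R against 5xFAD, in 43 (58.9%, beside 49.3%) in M28L against 5xFAD and in 45 (61.6%, beside 50.2%) in P522R against M28L. Both P522R libraries lay above both 5xFAD libraries in 22 of the 73 pairs (30.1%, beside 20.3% of all pairs) and below them in 11 (15.1%, beside 20.2%). Both M28L libraries lay above both 5xFAD libraries in 9 (12.3%, beside 19.0%) and below them in 12 (16.4%, beside 18.4%). Both P522R libraries lay above both M28L libraries in 20 (27.4%, beside 18.01%) and below them in 11 (15.1%, beside 18.11%). The median log2 fold change of the 73 pairs, with the contrasts in the order above, was 0.085, 0.054 and 0.049, and over all genes it was 0.00041, −0.0043 and 0.0011.

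**Figure D4:**
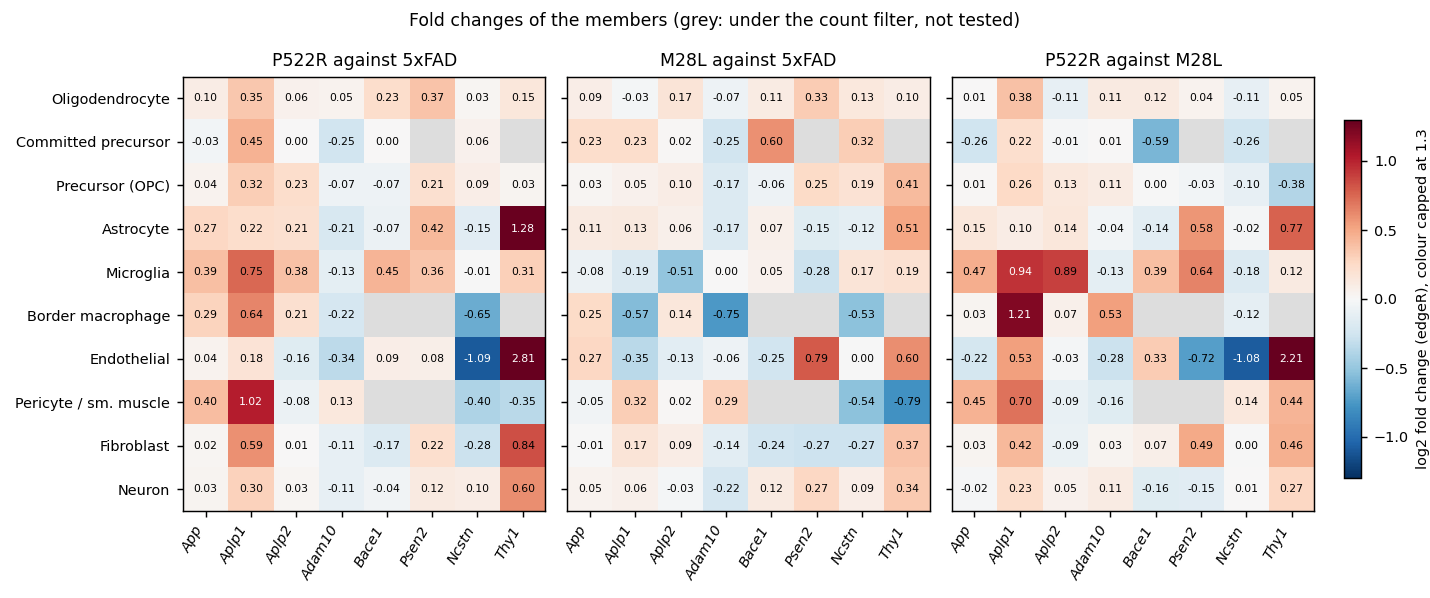
Log2 fold change (edgeR) of each gene in each cell type for the 3 contrasts; red is higher and blue lower in the group named first, colour is capped at 1.3, and grey cells fell under the count filter. Aplp1 is above 0 in all 10 types in both contrasts of P522R, and no cell passed the adjusted threshold.

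In the precursor family, the smallest p-values were those of Aplp2 and Aplp1 in microglia. In microglia Aplp2 was at 168 and 180.1 normalized CPM in 5xFAD-P522R, against 88.6 and 98.7 in 5xFAD-M28L (CPM after TMM scaling), and these groups did not overlap. The log2 fold change in P522R against M28L was 0.89 (SE 0.178, edgeR adjusted p = 0.235), and DESeq2 gave an adjusted p of 0.0131. 5xFAD libraries lay between at 107 and 159, and the log2 fold change in M28L against 5xFAD was −0.51 (SE 0.178, edgeR adjusted p = 0.941). Without 5xFAD replicate 3 the fold change in M28L against 5xFAD was −0.20. The share of disease-associated nuclei among microglia, the state high in Aplp2, was 42.3 and 39.4% in 5xFAD-P522R, 11.6 and 12.7% in 5xFAD-M28L and 15.5 and 40.04% in 5xFAD, so the libraries low in this state were also low in Aplp2. Within disease-associated microglia, Aplp2 had 292 and 253 CPM in 5xFAD-P522R, 177 and 185 CPM in 5xFAD-M28L, and 271 and 257 CPM in 5xFAD, with both M28L libraries below the other 4. Fitted on these nuclei alone, the log2 fold change was 0.56 (SE 0.130, edgeR adjusted p = 0.0917) in P522R against M28L and −0.54 (SE 0.134, edgeR adjusted p = 0.198) in M28L against 5xFAD. Within homeostatic microglia the values were 55.9 and 72.2 CPM in 5xFAD-P522R, 58.8 and 52.3 CPM in 5xFAD-M28L, and 70.1 and 35.6 CPM in 5xFAD, and the groups overlapped.

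**Figure D5:**
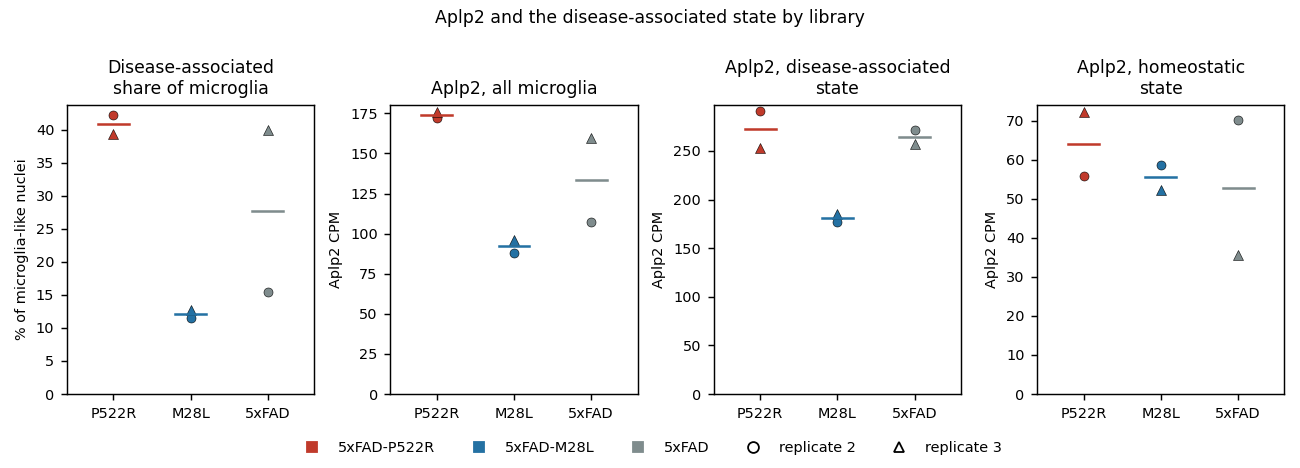
Share of disease-associated nuclei among microglia (%) and Aplp2 (CPM) in all, disease-associated and homeostatic microglia, with axes from 0; points are libraries and lines are means of 2. Both M28L libraries are lowest in the share (11.6% and 12.7%) and in Aplp2 in all and in disease-associated microglia, and the homeostatic values overlap.

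Aplp1 had log2 fold changes above 0 in all 10 cell types in P522R against 5xFAD (0.18 to 1.02), as did 2.68% of the 3400 genes tested in all types. It was also above 0 in all 10 in P522R against M28L (0.10 to 1.21), as did 0.647% of those genes. The cell types share libraries and are not separate observations. In microglia Aplp1 was at 40.7 and 64.7 normalized CPM in 5xFAD-P522R and 25.9 and 29.5 in 5xFAD-M28L, against 29.2 and 33.8 in 5xFAD. The log2 fold change was 0.75 (SE 0.223, edgeR adjusted p = 0.338) in P522R against 5xFAD and 0.94 (SE 0.226, edgeR adjusted p = 0.264) in P522R against M28L. Abundant oligodendrocyte transcripts moved with it: their sum in microglia was 2246 and 5464 CPM in 5xFAD-P522R, 1471 and 1634 in 5xFAD-M28L and 1215 and 1687 in 5xFAD, with all 10 of the list detected. Without the microglia sub-cluster led by such transcripts the 2 fold changes were 0.42 and 0.58, and without 5xFAD-P522R replicate 3 they were 0.36 and 0.56. That sum was higher in both P522R libraries than in both 5xFAD libraries in 6 of the 9 cell types other than oligodendrocytes, and its part in the Aplp1 values there was not tested. In oligodendrocytes themselves the sum was 31668 and 30841 CPM in 5xFAD-P522R and 31681 and 31763 CPM in 5xFAD, and Aplp1 was at 237 and 289 normalized CPM in 5xFAD-P522R and 176 and 228 in 5xFAD-M28L, against 195 and 216 in 5xFAD. App in microglia was at 282 and 420.1 normalized CPM in 5xFAD-P522R, against 252 and 284 in 5xFAD, and its upper value comes from the same library, 5xFAD-P522R replicate 3.

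Among the 8 genes, Thy1 gave the 2 smallest p-values in P522R against 5xFAD. In astrocyte-like nuclei it was at 46.1 and 44.0 normalized CPM in 5xFAD-P522R and 24.6 and 28.8 in 5xFAD-M28L, against 12.7 and 24.9 in 5xFAD, so both P522R libraries lay above the other 4. The log2 fold change was 1.28 (SE 0.284, edgeR adjusted p = 0.244) in P522R against 5xFAD and 0.77 (SE 0.286, edgeR adjusted p = 0.596) in P522R against M28L. DESeq2 gave an adjusted p of 0.041 for the contrast with 5xFAD. Single astrocyte-like nuclei held 31 of 126 Thy1 UMIs in 5xFAD-P522R replicate 2, 45 of 107 in 5xFAD-M28L replicate 3 and 36 of 161 in 5xFAD replicate 3. Without the nucleus with the most Thy1 UMIs in each library the fold changes were 1.24 and 0.91. Abundant neuron transcripts summed to 2716 and 2789 CPM in 5xFAD-P522R, 2656 and 2571 in 5xFAD-M28L and 2604 and 2504 in 5xFAD astrocytes, highest in P522R, and their part in the Thy1 values was not tested.

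In endothelial-like nuclei Thy1 was at 222 and 34.4 normalized CPM in 5xFAD-P522R and 39.5 and 22.0 in 5xFAD-M28L, against 15.4 and 26.3 in 5xFAD. The log2 fold change was 2.81 (SE 0.604, edgeR adjusted p = 0.249) in P522R against 5xFAD and 2.21 (SE 0.581, edgeR adjusted p = 0.679) in P522R against M28L. Without 5xFAD-P522R replicate 2, whose value came mainly from the 1 nucleus described above, these were 0.68 and 0.072. They then rest on 5 Thy1 UMIs in 24 endothelial-like nuclei of 5xFAD-P522R replicate 3, beside 9 and 13 UMIs in the 5xFAD libraries. In neuron-like nuclei, where Thy1 was highest, both P522R libraries lay above both 5xFAD libraries (79.8 and 89.5 normalized CPM in 5xFAD-P522R and 74.3 and 66.2 in 5xFAD-M28L, against 37.8 and 74.4 in 5xFAD).

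Among the secretase genes, Psen2 in oligodendrocytes was at 15.3 and 16.1 normalized CPM in 5xFAD-P522R and 14.7 and 15.8 in 5xFAD-M28L, against 12.2 and 12.1 in 5xFAD. All 4 libraries with a Plcg2 variant thus lay above both 5xFAD libraries, without passing the adjusted threshold. Of all pairs, 20.3% had both P522R libraries and 19.0% both M28L libraries above both 5xFAD libraries. These 2 contrasts share the 5xFAD libraries, and the variant groups were not tested together. The share of all pairs with both patterns at once is not given here, so how common the joint pattern is stays unknown. The log2 fold change was 0.37 (SE 0.110, edgeR adjusted p = 0.357) in P522R against 5xFAD and 0.33 (SE 0.110, edgeR adjusted p = 0.346) in M28L against 5xFAD. Adam10 in oligodendrocyte precursors was at 86.3 and 84.6 normalized CPM in 5xFAD-M28L, against 98.9 and 94.1 in 5xFAD, a log2 fold change of −0.17 (SE 0.0721, edgeR adjusted p = 0.397) in M28L against 5xFAD. In neurons Adam10 was at 71.0 and 82.4 normalized CPM in 5xFAD-M28L, against 90.2 and 87.8 in 5xFAD, a log2 fold change of −0.22 (SE 0.0967, edgeR adjusted p = 0.595), or −0.11 without 5xFAD-M28L replicate 2. In both cell types the M28L libraries lay below both 5xFAD libraries, as in 18.4% of all pairs. App, Bace1 and Ncstn had no pair among the 4 smallest p-values of any contrast. Over the cell types tested, the log2 fold change of App ran from −0.031 to 0.40 in P522R against 5xFAD and from −0.077 to 0.27 in M28L against 5xFAD. That of Bace1 ran from −0.17 to 0.45 and from −0.25 to 0.60 in the same contrasts, with 4 of 8 and 5 of 8 types above 0. That of Ncstn ran from −1.09 to 0.10 and from −0.54 to 0.32, with 4 of 10 and 5 of 10 above 0. The value of −1.09 was that of endothelial-like nuclei, which held 69 Ncstn UMIs over the 6 libraries. Their Ncstn level ranged from 6.70 to 39.3 CPM. Adam10 was below 0 in 8 of 10 types in both contrasts (−0.34 to 0.13 and −0.75 to 0.29), which share the 5xFAD libraries. Psen2 was above 0 in all 7 types tested in P522R against 5xFAD (0.077 to 0.42) and in 4 of 7 in M28L against 5xFAD. The cell types share libraries, so these counts of signs are not separate observations. Shares of all genes with such counts were not computed.

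A list of 25 further genes of the pathway (γ-secretase subunits, related proteases, adaptors and sorting receptors of APP, and amyloid-degrading enzymes) gave 198 pairs of gene and cell type per contrast. None passed in any of the 3 contrasts by edgeR. At an unadjusted p under 0.05, 17 (8.59%) differed in P522R against 5xFAD, with 11 higher and 6 lower. The counts were 13 (6.57%, 11 higher and 2 lower) in M28L against 5xFAD and 19 (9.60%, 9 higher and 10 lower) in P522R against M28L, beside 9.08%, 7.37% and 6.46% of all pairs in the same order of contrasts. DESeq2 called 2 pairs over the 3 contrasts, both of Apbb2 in oligodendrocytes, whose protein is an adaptor that binds the intracellular tail of APP. Apbb2 was at 461 and 473 normalized CPM in 5xFAD-P522R and 594 and 675 in 5xFAD-M28L, against 462 and 483 in 5xFAD. Both M28L libraries lay above the other 4. The log2 fold change was 0.43 (SE 0.0774, edgeR adjusted p = 0.341) in M28L against 5xFAD and −0.44 (SE 0.0773, edgeR adjusted p = 0.343) in P522R against M28L, with adjusted p of 0.00228 and 0.00175 by DESeq2. Sorl1 in microglia, a sorting receptor that binds APP, was at 106 and 128 normalized CPM in 5xFAD-M28L, against 69.6 and 85.2 in 5xFAD, a log2 fold change of 0.59 (SE 0.141, edgeR adjusted p = 0.941). In P522R against 5xFAD the smallest p-values were those of the lipoprotein receptor gene Lrp1 in astrocytes and the metalloproteinase inhibitor Timp3 in microglia. Lrp1 had a log2 fold change of 0.42 (SE 0.122, edgeR adjusted p = 0.354), or 0.25 without 5xFAD-P522R replicate 3. Timp3 had −1.09 (SE 0.302, edgeR adjusted p = 0.335). Its level was low, at 4.52 and 3.20 normalized CPM in 5xFAD-P522R, against 8.70 and 7.43 in 5xFAD. Ece1, an endothelin-converting enzyme that can degrade amyloid-β, had a log2 fold change of 0.84 (SE 0.251, edgeR adjusted p = 0.972) in fibroblasts in P522R against M28L.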

How the data were processed

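Per the labels' protocols, NeuN-negative nuclei of frozen cortex were profiled with the 10x 3' v3 kit. The deposited matrices hold raw UMI counts per gene and barcode, made by the authors with Cell Ranger against mm10, per the submitters' processing notes and the file headers. Whether intronic reads were counted is not given in the sources used here.

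The 62651 nuclei with 500 UMIs or more, 300 genes or more and no more than 5% mitochondrial UMIs entered the analysis. Doublets called by Scrublet were removed and the rest clustered (scanpy 1.11.5, 2000 variable genes, 30 components, resolution 1, 40 clusters). Clusters were named from marker lists, and 11 stayed unnamed (5987 nuclei). Naming rules were adjusted after viewing clusters, so names may differ from the study's. Counts were summed per library and cell type and tested with edgeR 4.0.16 (quasi-likelihood, TMM, minimum count 10, 3 groups in 1 fit, R 4.3.3); DESeq2 1.42.0 was an alternative. Adjusted p-values are Benjamini-Hochberg over all genes of a type and contrast. Levels are CPM without TMM. On simulated counts for microglia this recovered 96 of 100 genes changed 2-fold and 50 of 100 changed 1.5-fold, with 6 false calls among 13453 genes. In measured microglia 0 of 13690 genes passed in each contrast. Aplp2 in P522R against M28L, with a log2 fold change of 0.89, was among those that did not. The simulated recovery should therefore not be read as the power of these comparisons.

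Fold changes are given for the 4 pairs of gene and cell type with the smallest p in each contrast and for the 2 such pathway genes. The genes and lists were chosen with earlier results of these data known.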

Additional observations from a re-analysis of the deposited data

Results flagged for a closer look

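Both small clusters outside the comparisons held UMIs of all 8 genes, each above 3 counts of the cluster's total, the limit that a count of 0 allows. Free RNA in droplets was not measured, and a value above this limit does not show that the nuclei express the gene. They had fewer than 20 nuclei in some library, so their libraries were pooled and counting error alone bounds the values. The 60 T cell-like nuclei, with 166969 UMIs and a limit of 17.97 CPM, had Thy1, a T cell surface gene in mice, at 144 CPM (24 UMIs, exact 95% Poisson interval 92.1 to 214 CPM). They had App at 264, Aplp1 at 114, Aplp2 at 132, Adam10 at 174, Bace1 at 47.9, Psen2 at 35.9 and Ncstn at 35.9 CPM. The 265 ependymal-like nuclei, with a limit of 2.04 CPM, had Thy1 at 9.50 CPM, below the 12.99 CPM of oligodendrocyte-like nuclei. They had App at 331, Aplp1 at 26.5, Aplp2 at 236, Adam10 at 118, Bace1 at 32.6, Psen2 at 14.3 and Ncstn at 22.4 CPM.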

How the results depend on the processing

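No paired analysis was used for the main values because the labels do not say what a replicate number marks. With a replicate block, 3 of the 73 pairs passed in P522R against 5xFAD and 3 in P522R against M28L. Of the pathway pairs, 8 passed over all contrasts. Of all pairs, 2.25%, 1.78% and 0.4999% passed in P522R against 5xFAD, M28L against 5xFAD and P522R against M28L. Deviations of same-numbered libraries correlated at 0.021 to 0.43 in the cell types other than committed precursors, and above 0.1 in every pair of groups in 4 of them. Those 4 were oligodendrocytes (0.34 to 0.43), oligodendrocyte precursors (0.25 to 0.38), neurons (0.20 to 0.32) and microglia (0.17 to 0.30). The main values leave this shared part in the spread. The pairs that passed with the block were Aplp1 in oligodendrocytes (adjusted p = 0.0103 in P522R against 5xFAD and 0.0192 in P522R against M28L), Aplp1 in microglia (0.0406 and 0.0294), Aplp2 in microglia in P522R against M28L (0.0199) and Thy1 in astrocytes in P522R against 5xFAD (0.00506), all by edgeR. With no filter on low counts 6, 1 and 6 pairs passed (P522R against 5xFAD, M28L against 5xFAD, P522R against M28L) and 19 pathway pairs, beside 1.88%, 1.14% and 0.925% of all pairs. DESeq2 called 1 in P522R against 5xFAD, 1 in P522R against M28L and 2 pathway pairs, and a fit of the 4 libraries compared called 1 in P522R against M28L, beside 0.0576% of all pairs. Leaving out each library in turn gave 0 to 2, 0 to 0 and 0 to 2 pairs and 0 to 1 pathway pairs, beside 0.0112 to 0.470%, 0.000833 to 0.0778% and 0.00167 to 0.464% of all pairs. The cause of these differences was not tested. Of 348 values of the 18 named fold changes under alternatives, 317 kept their direction and stayed short of the threshold, 30 kept their direction and passed, and 1 turned: Aplp2 in microglia in M28L against 5xFAD was 0.062 in homeostatic microglia alone, an alternative chosen after seeing the data, as were the 4 others that added, left out or split nuclei. Without 5xFAD-P522R replicate 3 the fold change of Aplp2 in P522R against M28L was 0.84 (edgeR adjusted p = 0.826), and without 5xFAD replicate 3 or 2 that of Thy1 in astrocytes in P522R against 5xFAD was 1.83 (edgeR adjusted p = 0.0098) or 0.86. Without 5xFAD-P522R replicate 3 the fold changes of endothelial Thy1 were 3.40 and 2.79, both past the threshold, with 1 P522R library left, assumed to vary like the other groups, and without the nucleus with the most Thy1 UMIs it fell under the count filter. The highest cell type was kept for 6 to 8 of the 8 genes when a library was left out (7 to 8 for shares of nuclei), and for 5 when nuclei were thinned to 1000 UMIs. With log2(CPM + 10), 15 of the 24 most alike genes were kept. An alternative TMM scaling of the levels moved the level in oligodendrocytes to 1722 CPM for App, 266 for Aplp1 and 77.9 for Bace1. It is not the scaling of the normalized CPM given above, which was done within each cell type.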
